A study of Mus musculus with 16 samples.

Results

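The 9 neuropeptide genes described here are Npy, Sst, Cort, Vip, Cck, Tac1, Tac2, Adcyap1 and Crh, chosen by symbol from a gene table of the mouse medial prefrontal cortex (mPFC) with 26625 entries. Each symbol stood on a single row, and all 9 passed the filter on low counts. They were picked with earlier results of the same mice in view, in which peptide genes were lower after knockdown of Kdm7a and Cck was higher after morphine in control mice. For that reason the knockdown values of all 9 genes, and the morphine and interaction values of Cck, are given as a description without a test.

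RNA came from 16 male C57BL/6 mice aged 8 to 10 weeks, each of which had received an adeno-associated virus in the mPFC of both hemispheres and was then trained in conditioned place preference. The virus carried a short hairpin RNA (shRNA) under the U6 promoter and EGFP under the CMV promoter, neither of which is particular to a cell type. The shRNA was directed at Kdm7a, a demethylase of histone H3, in 9 Kdm7a-shRNA mice and was a control sequence in 7 Ctrl mice. The Ctrl mice carried no gene edit but the same surgery and a virus, so no group was free of virus. Conditioning lasted 10 days and used saline or a morphine dose of 10 mg/kg. According to the authors, morphine alternated with saline from day to day. The tissue dates from day 17, when withdrawal had reached its day 7, and was taken right after a repeat of the preference test. Of the Ctrl mice, 3 were given saline (Ctrl + Saline) and 4 morphine (Ctrl + Morphine); of the Kdm7a-shRNA mice, 5 were given saline (Kdm7a-shRNA + Saline) and 4 morphine (Kdm7a-shRNA + Morphine). The dissected tissue held cells that took up the virus and cells that did not, and all were sequenced together.

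Neuropeptides are made as larger precursors, cut by prohormone convertases, trimmed by carboxypeptidases, packed into dense-core vesicles and released to act on G protein-coupled receptors. In the cortex they also name the classes of GABA-releasing interneurons. Somatostatin (Sst), neuropeptide Y (Npy) and cortistatin (Cort) overlap in part in dendrite-targeting interneurons, and Npy is also made by neurogliaform interneurons. Vasoactive intestinal peptide (Vip) marks interneurons that mostly inhibit other interneurons. Cholecystokinin (Cck) is made by basket cells and also by many excitatory neurons. Tac1 encodes the substance P precursor, Tac2 the neurokinin B precursor, Adcyap1 the pituitary adenylate cyclase-activating peptide (PACAP) and Crh the corticotropin-releasing hormone.

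The sequences upstream of 5 of these genes are shown because Npy, Sst and Cort had the largest knockdown differences of the set, Vip was the other gene lower by the threshold used here, and Cck differed in opposite directions under saline and morphine. Each is the 250 bases before the RefSeq transcription start on GRCm38.p6, written 5′ to 3′ on the strand of the gene. Capitals mark the cAMP response element (TGACGTCA) or its shorter core (TGACG, or CGTCA where it lies on the other strand), to which CREB-family factors are known to bind. The windows are chr6:49822460-49822709 on the plus strand for Npy, chr16:23890845-23891094 on the minus strand for Sst, chr4:149126764-149127013 on the minus strand for Cort, chr10:5638968-5639217 on the plus strand for Vip, and chr9:121495695-121495944 on the minus strand for Cck.
Npy: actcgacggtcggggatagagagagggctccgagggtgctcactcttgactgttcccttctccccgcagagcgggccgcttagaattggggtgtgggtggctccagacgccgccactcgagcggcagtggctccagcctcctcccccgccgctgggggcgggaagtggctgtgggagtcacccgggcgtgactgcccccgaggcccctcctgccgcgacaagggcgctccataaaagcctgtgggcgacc
Sst: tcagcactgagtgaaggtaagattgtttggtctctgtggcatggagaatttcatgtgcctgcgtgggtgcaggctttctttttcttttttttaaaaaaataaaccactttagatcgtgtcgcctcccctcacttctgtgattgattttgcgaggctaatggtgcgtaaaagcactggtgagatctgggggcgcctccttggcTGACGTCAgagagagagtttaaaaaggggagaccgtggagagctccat
Cort: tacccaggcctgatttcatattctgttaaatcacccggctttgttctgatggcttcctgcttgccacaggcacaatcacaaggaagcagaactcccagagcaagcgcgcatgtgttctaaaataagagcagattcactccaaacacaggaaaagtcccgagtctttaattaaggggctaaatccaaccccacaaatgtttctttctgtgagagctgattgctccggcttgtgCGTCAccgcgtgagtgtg
Vip: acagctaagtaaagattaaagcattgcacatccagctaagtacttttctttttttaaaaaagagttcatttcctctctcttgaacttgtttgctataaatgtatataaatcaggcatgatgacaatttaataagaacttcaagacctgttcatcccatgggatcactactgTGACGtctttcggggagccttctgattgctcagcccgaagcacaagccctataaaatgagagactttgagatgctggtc
Cck: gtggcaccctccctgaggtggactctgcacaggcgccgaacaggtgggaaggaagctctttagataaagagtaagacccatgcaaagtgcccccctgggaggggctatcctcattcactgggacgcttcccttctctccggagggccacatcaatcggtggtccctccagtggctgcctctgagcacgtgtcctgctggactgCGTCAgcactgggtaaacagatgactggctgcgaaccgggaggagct

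RefSeq windows of 300 bases, reaching 50 bases past the start, were found for 8 of the 9 genes, with 2 windows for Adcyap1. On either strand, the full element TGACGTCA was in the Sst window alone among 9 windows, starting 48 bases before the transcription start, and in 1.79% of all 32851 promoter windows. The core TGACG was in 7 of the 9 windows (Sst, Vip, Cck, Cort, Tac1 and both of Adcyap1) and in 20.8% of all windows. Both core matches of Sst lie inside its full element, and the 2 Adcyap1 windows overlap and share their match. The Npy and Tac2 windows did not hold the core. The letters TATAAA were in 2 of the 9 windows against 13.6% of all, and CCAAT in 4 against 37.4%. A match describes these letters only. The 3 genes that were lower in every Kdm7a-shRNA mouse are 1 with the full element, 1 with the core and 1 with neither.

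Between 6596991 and 12418112 reads were counted per mouse. Levels below are CPM, which are counts relative to the total of the library, scaled by its TMM factor, and fold changes are from edgeR with all 16 mice in a single fit. The normalized level of Kdm7a was 9.42 CPM ± 0.353 (SD, n = 3) in Ctrl + Saline and 5.55 ± 0.571 (n = 5) in Kdm7a-shRNA + Saline mice (log2 fold change -0.76, adjusted p = 0.0153), and 7.72 ± 1.13 (n = 4) and 4.94 ± 1.53 (n = 4) under morphine (-0.67, adjusted p = 0.0506, with overlapping mice; edgeR's quasi-likelihood test, Benjamini-Hochberg adjustment). Of 5 markers of thalamus and hypothalamus, 4 hypothalamic peptide genes were near 0, with at most 10 counts of Pmch and at most 3 of Hcrt, Oxt or Avp in any mouse, while Tcf7l2, a transcription factor of the thalamus that other brain cells also make, had 30 to 193 counts and a knockdown log2 fold change of 0.58 (adjusted p = 0.353) under saline. The excitatory markers Slc17a7 and Camk2a had at least 2258 and 3320 counts in every mouse.

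Npy, whose peptide inhibits transmitter release, showed the widest separation between the viruses. Its normalized level was 461, 367 and 440 CPM in the 3 Ctrl + Saline mice and 140, 98.9, 104, 147 and 113 CPM in the 5 Kdm7a-shRNA + Saline mice. Under morphine it was 411, 242, 365 and 358 CPM in Ctrl and 154, 131, 129 and 175 CPM in Kdm7a-shRNA mice. Every Kdm7a-shRNA mouse was below every Ctrl mouse, whichever treatment it had received. The group means were 423 ± 49.2 against 121 ± 21.7 CPM under saline, a 3.5-fold lower level (log2 fold change -1.81, SE 0.165), and 344 ± 72.1 against 147 ± 21.8 CPM under morphine, 2.34-fold lower (-1.22, SE 0.166). In tissue of mixed cells, fewer cells of a type and less RNA per cell cannot be told apart.

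Sst, the inhibitory peptide of dendrite-targeting interneurons, was also lower in every Kdm7a-shRNA mouse. It stood at 267, 203 and 246 CPM in Ctrl + Saline and at 128, 94.5, 80, 152 and 86.9 CPM in Kdm7a-shRNA + Saline mice. Under morphine, Sst was 275, 235, 254 and 280 CPM in Ctrl and 135, 115, 117 and 157 CPM in Kdm7a-shRNA mice. The lowest Ctrl mouse, at 203 CPM, lay above the highest Kdm7a-shRNA mouse, at 157 CPM. Mean levels were 239 ± 32.8 and 108 ± 30.6 CPM in the saline groups, a 2.2-fold difference (log2 fold change -1.14, SE 0.175), and 261 ± 20.6 and 131 ± 19.4 CPM in the morphine groups, a 1.99-fold difference (-0.99, SE 0.175).

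Cort, whose product cortistatin resembles somatostatin and binds its receptors, was less abundant, with 38 to 229 counts per mouse. Its level was 19.2, 16.3 and 22.7 CPM in Ctrl + Saline and 9.42, 6.11, 4.74, 9.11 and 7.14 CPM in Kdm7a-shRNA + Saline mice. The morphine groups had 22.9, 11.4, 18 and 18.1 CPM in Ctrl and 5.82, 9.11, 6.87 and 10.2 CPM in Kdm7a-shRNA mice. The viruses did not overlap, but the gap between the lowest Ctrl mouse (11.4 CPM) and the highest Kdm7a-shRNA mouse (10.2 CPM) was narrow. The log2 fold change of Cort was -1.40 (SE 0.24) under saline and -1.14 (SE 0.24) under morphine.

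Vip was lower in Kdm7a-shRNA mice with more spread. Its levels were 77.6, 79.7 and 108 CPM in Ctrl + Saline and 49.5, 47.1, 39.6, 58.6 and 39.5 CPM in Kdm7a-shRNA + Saline mice, without overlap. Under morphine they were 72.7, 55.6, 76.3 and 64.4 CPM in Ctrl and 50.1, 42.3, 27.2 and 65.5 CPM in Kdm7a-shRNA mice, and replicate 4 of the latter lay among the Ctrl mice. The log2 fold change was -0.92 (SE 0.21) under saline and -0.54 (SE 0.209) under morphine, and 7 of the 9 mice with the shRNA lay under every Ctrl mouse.

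**Figure D1:**
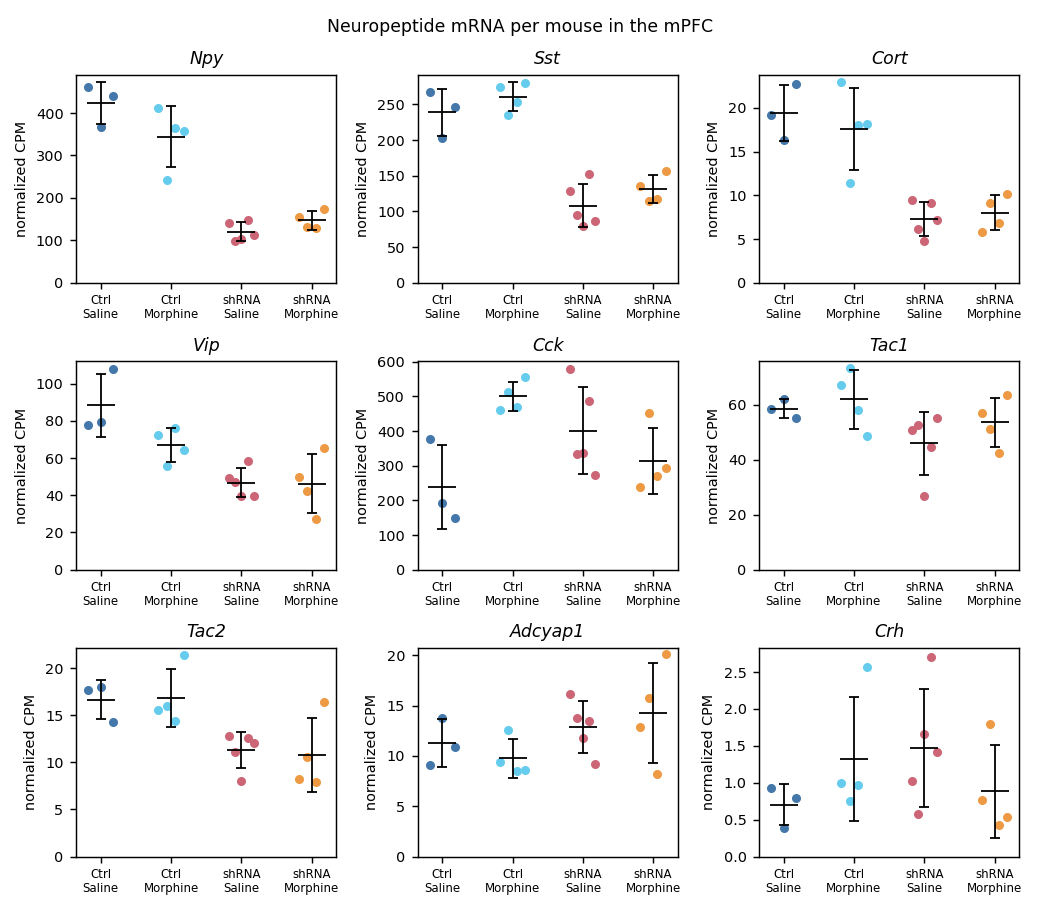
Normalized CPM of each peptide gene (linear axis from 0, a separate scale per panel) in each of the 16 mice by group; points are mice, and bars are the mean and SD. For Npy, Sst and Cort the 9 Kdm7a-shRNA points lie under the 7 Ctrl points, and Cck is lowest on average in Ctrl + Saline mice (239 CPM).

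Of the 2 tachykinin genes, Tac2 was 17.7, 18 and 14.3 CPM in Ctrl + Saline and 12.8, 11.1, 8.06, 12.6 and 12.1 CPM in Kdm7a-shRNA + Saline mice, and 15.6, 16, 14.4 and 21.4 CPM against 8.27, 10.6, 7.9 and 16.4 CPM under morphine. All Kdm7a-shRNA mice but 1 of the morphine group were below every Ctrl mouse. Its log2 fold change was -0.56 (SE 0.218) under saline and -0.65 (SE 0.215) under morphine, and it passed the threshold in neither. It did pass as lower in both with library size only and with the replicate block, under saline with the length trend offset and under morphine by DESeq2. Tac1 ranged from 48.8 to 73.5 CPM in Ctrl and from 26.7 to 63.6 CPM in Kdm7a-shRNA mice, with log2 fold changes of -0.35 (SE 0.194) and -0.21 (SE 0.189). For Tac1, just 3 of the 9 mice with the shRNA lay under every Ctrl mouse.

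Cck had a different order of groups. Its level was 376, 192 and 149 CPM in Ctrl + Saline, 462, 512, 470 and 555 CPM in Ctrl + Morphine, 578, 333, 337, 487 and 272 CPM in Kdm7a-shRNA + Saline and 240, 453, 270 and 292 CPM in Kdm7a-shRNA + Morphine mice. The Ctrl + Morphine mice were all above the Ctrl + Saline mice, while the Kdm7a-shRNA + Morphine mice lay between the lowest and the highest Ctrl mouse and the Kdm7a-shRNA + Saline mice reached above them, to 578 CPM. The knockdown difference was 0.75 (SE 0.282) on the log2 scale under saline, with replicate 1 of Ctrl + Saline lying among the Kdm7a-shRNA mice, and -0.67 (SE 0.267) under morphine, where the groups did not overlap. Neither passed the threshold in the main edgeR fit of all mice. Under saline Cck did pass as higher by DESeq2 and with the replicate block.

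Adcyap1, a stimulator of cyclic AMP made mainly by excitatory neurons in the cortex, was the single gene of the set with a positive knockdown difference under both treatments, at 0.19 (SE 0.248) and 0.54 (SE 0.24). Its levels overlapped between all groups, with 8.52 to 13.8 CPM in Ctrl and 8.25 to 20.1 CPM in Kdm7a-shRNA mice. Crh was close to the limit of detection, with 4 to 24 counts per mouse, and its log2 fold changes of 1.09 (SE 0.588) under saline and -0.60 (SE 0.541) under morphine rest on those counts. The value under morphine was -0.06 without Ctrl + Morphine replicate 4, the mouse with the highest level of that group, and -1.23 without Kdm7a-shRNA + Morphine replicate 2.

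By the threshold used here (adjusted p under 0.05 with at least a 1.5-fold difference), 4 of the 9 genes (Npy, Sst, Cort and Vip) were lower in Kdm7a-shRNA than in Ctrl mice under saline and 0 were higher. Over all 18826 genes tested, 16.7% passed in this comparison, 9.31% as lower and 7.43% as higher. Under morphine 3 of the 9 (Npy, Sst and Cort) were lower and 0 higher, where 7.69% of all genes passed, 4.83% as lower and 2.86% as higher. The split over all genes depended on scaling and on which genes were tested. Higher genes were 44.4% of those that passed under saline and 37.2% under morphine, but 29.2% and 24% with library size only. With known genes only they were 61.7% and 60.1%. With a length trend offset, which tests only the 13853 genes with a RefSeq transcript length, they were 60.9% and 64.9%. The median log2 fold change of the 9 was -0.56 under saline and -0.65 under morphine, beside 0.01 and 0.00 over all genes. Groups did not overlap, with the Kdm7a-shRNA mice lower, for 5 of the 9 under saline (12.7% of all genes) and 4 under morphine (7.51%). For 3 of the 9 genes, and 2.5% of all genes, the highest Kdm7a-shRNA mouse of either treatment lay under the lowest Ctrl mouse. These counts concern the contrast by which the peptides were chosen.

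The count under saline went from 4 to 3 without Ctrl + Saline replicate 3, when Vip no longer passed, and to 5 without Ctrl + Saline replicate 1 or Kdm7a-shRNA + Saline replicate 5, when Cck passed as higher. Under morphine it went from 3 to 5 without Kdm7a-shRNA + Morphine replicate 4, when Vip and Tac2 passed as lower.

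The next question was whether morphine withdrawal changed the peptides within each virus. In Ctrl mice 0 of the 9 passed the threshold, as did 0% of all genes in edgeR's quasi-likelihood test. For all genes, 2205 had an unadjusted p under 0.05, and DESeq2 called 190. Npy was 0.30 lower on the log2 scale after morphine (SE 0.175, adjusted p = 0.541), and Vip 0.40 lower (SE 0.222, adjusted p = 0.513). The Vip values nevertheless did not overlap, the lowest Ctrl + Saline mouse being at 77.6 CPM and the highest Ctrl + Morphine mouse at 76.3 CPM, a lower separation that 5.38% of all genes showed. Sst, Cort, Tac1, Tac2 and Adcyap1 had log2 fold changes between -0.21 and 0.13, with adjusted p from 0.793 to 0.988. Crh, at 0.94 (SE 0.612), had an adjusted p of 0.589.

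Cck was the peptide with the largest morphine difference in Ctrl mice, 2.09-fold higher (log2 fold change 1.06, SE 0.295), without overlap, a higher separation that 7.04% of all genes showed. It is among the values by which the genes were chosen and is given without a test. It did not pass in edgeR with all mice, and passed under DESeq2 or without Ctrl + Saline replicate 1, the mouse at 376 CPM. Leaving out that mouse also took the number of genes that passed among all tested from 0 to 230.

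In Kdm7a-shRNA mice 0 of the 9 passed between morphine and saline, where 0.00531% of all genes did, 1321 genes had an unadjusted p under 0.05 and DESeq2 called 26. Npy and Sst were 0.29 (SE 0.155, adjusted p = 0.742) and 0.28 (SE 0.165, adjusted p = 0.759) higher on the log2 scale. Cck was lower, with a log2 fold change of -0.36 (SE 0.253, adjusted p = 0.804). The groups overlapped for each of the 9 genes, and 1.94% of all genes showed no overlap.

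The interaction, which is the knockdown difference under morphine minus that under saline, passed for 0 of the 9 genes and for 0.085% of all genes by edgeR, with 2022 genes at an unadjusted p under 0.05 and 227 called by DESeq2. For Npy it was 0.58 (SE 0.234, adjusted p = 0.355), the knockdown difference being smaller under morphine. Sst, Cort, Vip, Tac1, Tac2 and Adcyap1 lay between -0.09 and 0.37 with adjusted p from 0.711 to 0.95. Crh had -1.69 (SE 0.799, adjusted p = 0.46). Cck, given without a test, had -1.42 (SE 0.388), and it passed under DESeq2 and without Ctrl + Saline replicate 1. The comparisons of knockdown and of morphine share mice, so the values of Cck in them are not separate observations.

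**Figure D2:**
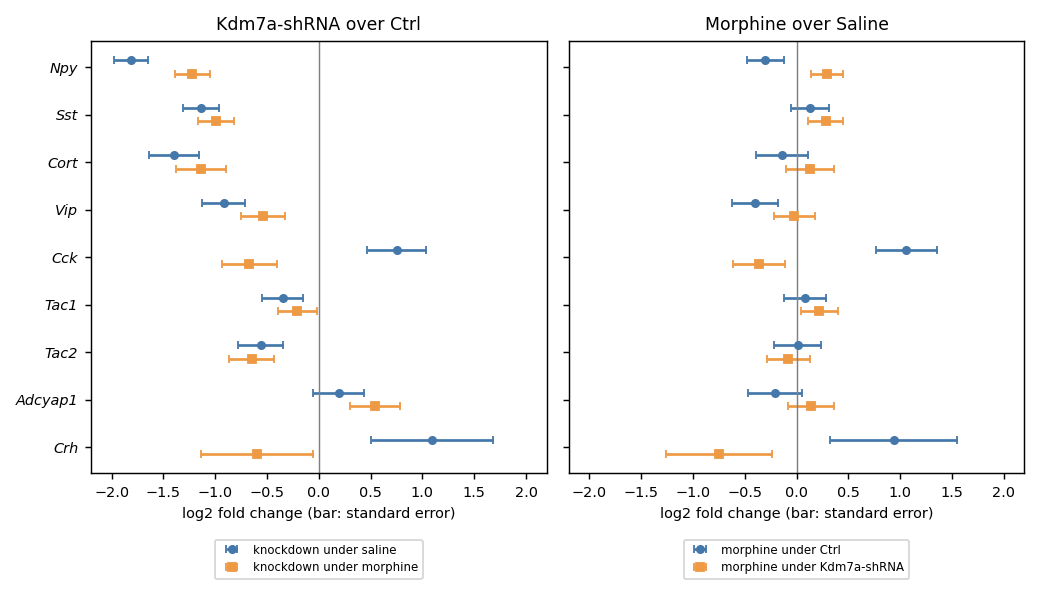
Log2 fold change (x axis, bars are standard errors) of the 9 peptide genes for Kdm7a-shRNA over Ctrl (left) and morphine over saline (right), in the fit of all 16 mice. Npy, Sst, Cort and Vip lie left of 0 for both knockdown comparisons, and Cck lies at 1.06 for morphine in Ctrl mice and at -0.36 in Kdm7a-shRNA mice.

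Most of these peptides are made by GABAergic cells, so each was also set against Gad1 and Gad2, the enzymes of GABA synthesis, as the log2 ratio of its count to their summed count in the same mouse. The ratio of Npy was 1.62 ± 0.21 in Ctrl + Saline and 0.05 ± 0.261 in Kdm7a-shRNA + Saline mice, a difference of -1.57 (SE 0.168), and under morphine it was 1.24 ± 0.479 and 0.07 ± 0.119, a difference of -1.17 (SE 0.247). For Sst the differences were -0.93 (SE 0.182) and -0.96 (SE 0.146), for Cort -1.19 (SE 0.209) and -1.08 (SE 0.35), and for Vip -0.67 (SE 0.189) and -0.56 (SE 0.237). The Npy and Sst ratios of the Kdm7a-shRNA mice lay below those of every Ctrl mouse of the same treatment, whereas under morphine the Cort and Vip ratios overlapped. The ratio of Cck differed by 1.05 (SE 0.443) under saline and -0.68 (SE 0.294) under morphine.

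The choice of reference changed these sizes. Against Slc32a1, the vesicular GABA transporter, which was itself higher in Kdm7a-shRNA + Saline mice, the saline difference of Npy was -2.95 (SE 0.33) and that of Sst -2.30 (SE 0.354), and those of Cck, Crh and Adcyap1 turned negative, at -0.32, -0.21 and -0.93. The level of Gad1 was 125 ± 4.11 CPM in Ctrl + Saline and 109 ± 20.7 CPM in Kdm7a-shRNA + Saline mice, and that of Gad2 was 11.7 ± 1.1 and 7.53 ± 2.01 CPM, a log2 fold change of -0.63 that passed as lower (adjusted p = 0.036 by edgeR). Slc32a1 had 4.51 ± 1.23 and 9.79 ± 1.39 CPM.

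**Figure D3:**
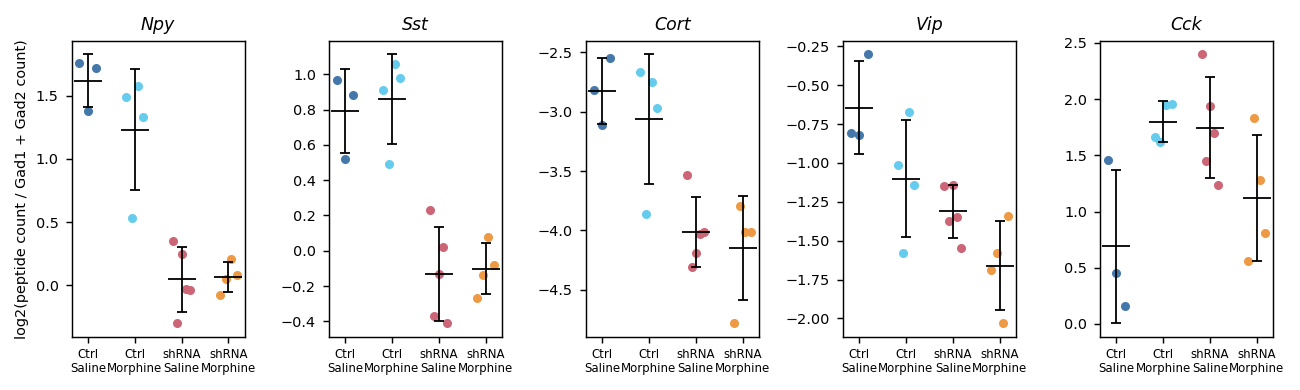
Log2 ratio of the count of 5 peptide genes to the summed count of Gad1 and Gad2 in each mouse (y axis, a separate scale per panel that does not start at 0), by group, with the mean and SD. The Npy ratio is at most 0.35 in Kdm7a-shRNA mice and at least 0.53 in Ctrl mice.

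Other genes of the interneuron classes did not follow one direction. Of 20 listed, 19 were tested, and the saline groups differed by the threshold for 3 higher and 3 lower genes in Kdm7a-shRNA mice, with a median log2 fold change of -0.28. Of all genes, 16.7% passed in that comparison and 7.69% in the one under morphine. Slc32a1 rose by 1.10 on the log2 scale (adjusted p = 0.00271). Lamp5, a marker of neurogliaform cells, had a log2 fold change of -0.91 (adjusted p = 0.0225) and Reln, the secreted reelin, -0.93 (adjusted p = 0.0358). Lamp5 no longer passed without Ctrl + Saline replicate 2, Ctrl + Saline replicate 3 or Kdm7a-shRNA + Saline replicate 5 (adjusted p up to 0.065), and Reln lost its call in 6 of the 16 fits that leave out a mouse (up to 0.0993). Under morphine 1 passed as higher and 1 as lower, namely Pvalb, the calcium buffer of fast-spiking basket cells (0.81, adjusted p = 0.0118), and Reln (-0.98, adjusted p = 0.044), whose call was lost in 10 of the 16 such fits (up to 0.144). Pvalb was also among the 3 higher genes under saline (0.68, adjusted p = 0.0174). In the remaining comparisons 0 passed. All are from edgeR's quasi-likelihood test.

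Genes that make and package peptides were counted next. Under saline, where 16.7% of all genes passed and 7.43% did so as higher, 2 of 15 passed, both higher in Kdm7a-shRNA mice. They were Cpe, the carboxypeptidase that trims peptide ends (0.72, SE 0.14, adjusted p = 0.00263), and Pcsk1n, the inhibitor of prohormone convertase 1 (1.04, SE 0.269, adjusted p = 0.0129). Cpe fell short of the 1.5-fold threshold with library size only and with the length trend offset, and Pcsk1n did not pass without Ctrl + Saline replicate 2 or replicate 3 (adjusted p up to 0.0734). Under morphine, where 7.69% of all genes passed and 4.83% did so as lower, 2 of 15 passed, both lower. They were Chga, the dense-core granule protein chromogranin A (-0.73, SE 0.134, adjusted p = 0.00512), and Cadps2, which primes dense-core vesicles for release (-0.84, SE 0.187, adjusted p = 0.012). Under saline Cadps2 was also lower (-0.56, adjusted p = 0.0454 by edgeR) but short of the 1.5-fold threshold, and Chga was at -0.07. Cpe and Pcsk1n were at 0.21 and 0.08 under morphine. In the morphine comparisons and the interaction 0 of 15 passed.

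Of 18 genes for peptide receptors and a binding protein, 12 could be tested. Sstr5, Vipr2, Crhr2, Tacr1 and Tacr3 had at most 6 counts in any mouse. Under saline, where 16.7% of all genes passed and 9.31% did so as lower, 2 of the 12 passed, both lower. They were Crhbp, which binds and holds back Crh (-0.92, SE 0.202, adjusted p = 0.005), and Cckbr, the cortical cholecystokinin receptor (-0.64, SE 0.222, adjusted p = 0.0481). The call of Cckbr was lost without a filter and in 12 of the 16 fits that leave out a mouse (adjusted p up to 0.148), and it held there only without Kdm7a-shRNA + Saline replicate 4 or Kdm7a-shRNA + Morphine replicate 2, 3 or 4. Under morphine, where 7.69% of all genes passed and 4.83% did so as lower, 1 of the 12 passed. It was Adcyap1r1, the PACAP receptor, which was lower (-0.77, SE 0.159, adjusted p = 0.00842). Under saline it was also lower (-0.54, adjusted p = 0.0249 by edgeR) but short of the 1.5-fold threshold. Passed or not, 10 of the 12 were lower under saline and 11 under morphine. The median log2 fold changes were -0.38 and -0.47, beside 0.01 and 0.00 over all genes. The summed level of 17 listed genes was 239 to 277 CPM in Ctrl and 135 to 236 CPM in Kdm7a-shRNA mice. Most of that sum is Adcyap1r1, Crhbp and Cckbr, with means of 121, 69.4 and 46.9 CPM in Ctrl + Saline mice. It therefore says little about the other receptors. The tested receptors of Npy and somatostatin passed in neither comparison.

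Markers of some other cell types were higher in Kdm7a-shRNA mice. Over all genes, 7.43% passed as higher under saline and 2.86% under morphine. Of 6 microglial markers, 5 passed as higher in Kdm7a-shRNA mice under saline and 3 under morphine, and their summed level was 561 to 671 CPM in Ctrl + Saline, 311 to 601 in Ctrl + Morphine, 803 to 2306 in Kdm7a-shRNA + Saline and 556 to 2183 CPM in Kdm7a-shRNA + Morphine mice. Astrocyte markers passed as higher in 2 of 6 cases under saline and 0 under morphine, endothelial markers in 3 and 1 of 3, and oligodendrocyte markers in 0 of 5 in both. Of 6 excitatory markers, 1 passed as higher under saline and 0 under morphine, and their summed level was 1528 to 2165, 1918 to 3206, 1746 to 3934 and 1756 to 3197 CPM in the same order of groups. That gene was Nrgn, the calmodulin-binding neurogranin, named here after its values were seen, with a knockdown log2 fold change of 1.48 (adjusted p = 0.0141) under saline and 0.11 (adjusted p = 0.886) under morphine. Its morphine difference in Ctrl mice was 1.04 (adjusted p = 0.295) and its interaction -1.37 (adjusted p = 0.322), beside 1.06 and -1.42 for Cck. The part of these cells in the peptide values was not tested. The summed level of the 3 GABAergic markers was 137 to 147 CPM in Ctrl + Saline, 127 to 176 in Ctrl + Morphine, 95.5 to 159 in Kdm7a-shRNA + Saline and 119 to 174 CPM in Kdm7a-shRNA + Morphine mice, and so overlapped throughout. Most of that sum is Gad1. The other 2 markers passed in opposite directions under saline, Gad2 as lower (-0.63, adjusted p = 0.036) and Slc32a1 as higher (1.10, adjusted p = 0.00271, both by edgeR). Striatal markers, which bear on Tac1 because striatal neurons make it, passed in 0 of 7 cases, with summed levels of 69.9 to 92.6, 119 to 148, 64.1 to 158 and 75.3 to 113 CPM in the same order of groups.

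Several peptide messengers are short. The longest annotated transcript has 566 bases for Npy, 677 for Cort, 721 for Sst, 799 for Cck and 852 for Tac2, against 1230 for Tac1, 1320 for Crh, 1530 for Vip and 3392 for Adcyap1. Among the 522 tested genes whose longest transcript has from 500 to under 900 bases, the median log2 fold change of Kdm7a-shRNA over Ctrl was 0.21 under saline and 0.10 under morphine, and 2.68% and 1.34% passed as lower. Npy, Sst, Cort, Cck and Tac2 are of this length. The authors removed reads under 500 bases, which is close to the 566 of Npy. Whether this cutoff affected the counts of Npy was not tested. With an offset for the trend of fold change on length, the log2 fold changes under saline and morphine were -1.97 and -1.33 for Npy, -1.30 and -1.09 for Sst and -1.57 and -1.24 for Cort.

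**Figure D4:**
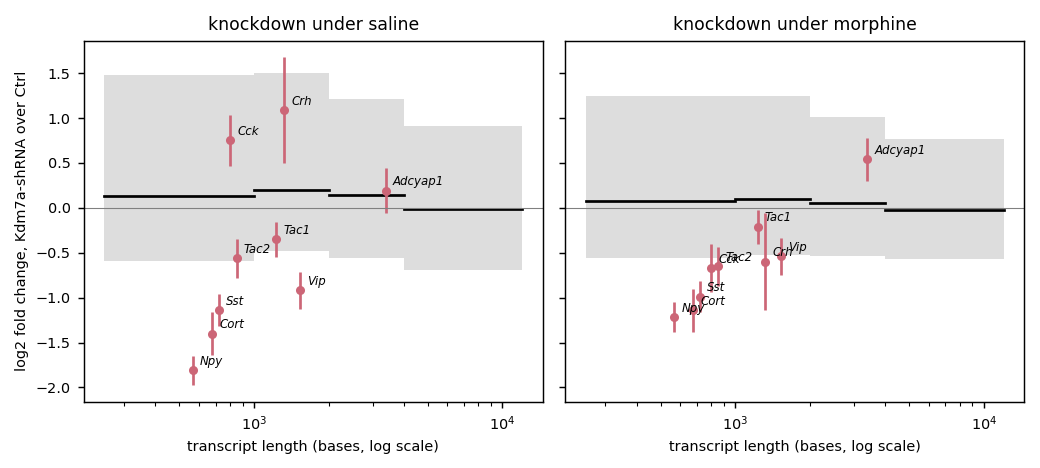
Log2 fold change of Kdm7a-shRNA over Ctrl (y axis) against the longest transcript length (x axis, log scale) under saline (left) and morphine (right). Black lines are the medians and grey bands the 5th to 95th percentiles of the 13853 tested genes with a RefSeq transcript length, under 1000, 1000 to 2000, 2000 to 4000 and over 4000 bases. Points are peptides with standard errors. Npy, Sst, Cort and Vip lie below the band in both panels, Vip only just under morphine. Cck, Tac2 and Crh lie below it under morphine alone.

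To show which genes varied with a peptide from mouse to mouse, log2 normalized levels were centred on their group means and correlated over the 16 mice with each of 10113 genes at a mean of at least 5 CPM. The values are a description, since all genes share the libraries and their depth. The genes closest to Npy were Plp2 (Pearson's r 0.86, Spearman's rho 0.73), Nkd1 (0.86, 0.88) and Otud4 (0.81, 0.80). Those closest to Sst were Stmn1 (0.89, 0.84), Cdipt (0.88, 0.90) and Pde2a (0.88, 0.82). Cck varied most like Rheb (0.94, 0.91), Stub1 (0.92, 0.85) and Glrx2 (0.92, 0.80). Without the 2 mice farthest from the median of the peptide, r was 0.76 to 0.83 for the genes of Npy, 0.80 to 0.86 for those of Sst and 0.86 to 0.90 for those of Cck. Without centring, 0, 1 and 2 of the 3 genes named for Npy, Sst and Cck were again among the closest 3.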

How the data were processed

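The mPFC of each mouse was sequenced as cDNA-PCR libraries on a Nanopore instrument. According to their methods, reads of low quality or under 500 bases were removed by the authors, as were ribosomal reads, and full-length reads were kept and aligned to mm10 with minimap2. They deposited the whole-number counts of reads per gene in each mouse. The deposited CPM values are those counts rescaled by the column total (recomputed here to within 4.99e-06) and were not used further. The submitters' processing notes name edgeR 3.8.6.

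The counts were fitted here in R 4.3.3 with edgeR 4.0.16 and limma 3.58.1 (filterByExpr on the 4 groups, TMM factors, quasi-likelihood F test, 1 coefficient per group, all 16 mice). P-values were adjusted by Benjamini-Hochberg over 18826 genes, and a gene passed at an adjusted p under 0.05 with a fold change of at least 1.5. A standard error is the size of the log2 fold change over the root of its F statistic. The log2 ratio to Gad1 and Gad2 used raw counts with 0.5 added to both sides. The script was tested on simulated data. For the 25 pairs of mice within a group, the counts gave a chi-square of 7.36 to 44.5 per degree of freedom, above counting error. Each library is taken here as 1 separate mouse. The sample titles number the libraries within a group and mention no pooling, but do not state this outright.

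The 9 genes and the lists were chosen with earlier results of these data known. From each list the text names up to 2 higher and 2 lower genes with the smallest p among those that passed in each knockdown comparison, and any that passed elsewhere. 1 gene that this rule names is not reported here. It also names the 3 known genes most like Npy, Sst and Cck. Promoters are from RefSeq, and gene models and lengths from GENCODE vM21 on GRCm38. Alternatives were RLE factors, library size only, no filter, at least 10 counts in every mouse, known genes only, the compared groups alone, DESeq2 1.42.0, a replicate block, a length trend offset, each mouse left out, Slc32a1 as reference and correlation without centring.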

Additional observations from a re-analysis of the deposited data

Results flagged for a closer look

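In the 4 Ctrl + Morphine mice, Crh was 0.998, 0.747, 0.974 and 2.57 CPM, and replicate 4, at 2.57 CPM, stood apart from the others. Its gap to the nearest mouse was 0.862 of the range of the group, above the 95% critical value of Dixon's test for 4 values. It rests on 24 counts. Of 27 groups of 4 or 5 mice tested over the 9 peptides this was the 1 that passed, and chance alone passes about 1 in 20.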

How the results depend on the processing

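Npy, Sst and Cort stayed on their side of the threshold in both knockdown comparisons under every alternative, in values by which the genes were chosen and which are a description only. With 1 mouse left out, the number of the 9 peptides that passed was 3 to 5 under saline (4 with all mice) and 3 to 5 under morphine (3 with all mice, 5 without Kdm7a-shRNA + Morphine replicate 4). It was 0 to 1 for morphine in Ctrl mice and for the interaction, where the 1 was Cck, both under DESeq2 and without Ctrl + Saline replicate 1. The cause was not tested.

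Over all genes, 3151 passed in the knockdown comparison under saline, but 1852 with at least 10 counts in every mouse, 1419 with known genes only, 1216 with the length trend offset, and 1424 to 3730 with 1 mouse left out. Under morphine 1448 passed, but 697, 446 and 413 in the same order, 685 with the compared groups alone, and 568 to 2066 with 1 mouse left out. The filter, known genes only and the length trend offset test fewer genes by construction. For morphine in Ctrl mice the number was 0, with 190 by DESeq2 and 0 to 230 with 1 mouse left out. For morphine in Kdm7a-shRNA mice it was 1, with 2 under the stricter filter, 2 with known genes only, 0 with the compared groups alone, 0 with the replicate block, 26 by DESeq2 and 0 to 5 with 1 mouse left out. For the interaction it was 16, with 34 without a filter, 227 by DESeq2, 6 with the replicate block and 0 to 266 with 1 mouse left out. Scaling by library size only shifted the median over all genes, on the log2 scale, by -0.13 between the saline groups and by -0.11 between the morphine groups.

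In the lists, peptide processing genes that passed under saline numbered 1 to 4 with 1 mouse left out. Receptor genes numbered 1 to 2 under saline (1 without a filter) and 1 to 3 under morphine (2 with the replicate block). Interneuron genes numbered 2 to 6 under saline and 1 to 4 under morphine (1 with known genes only, with the compared groups alone and with the length trend offset). For morphine in Ctrl mice and for the interaction they were 0 to 1, with 1 by DESeq2. Against Slc32a1 in place of Gad1 and Gad2, the log2 difference under saline was -2.95 for Npy, -2.30 for Sst, -2.56 for Cort, -2.04 for Vip, -1.52 for Tac1, -1.70 for Tac2, -0.32 for Cck, -0.21 for Crh and -0.93 for Adcyap1, and under morphine -0.40 for Tac1.

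In the morphine comparisons and the interaction, the fitted signs that turned belonged to differences near 0 that had not passed. For morphine in Ctrl mice the log2 fold change of Tac2 was 0.00 with RLE factors and by DESeq2, -0.01 with the stricter filter, -0.02 with known genes only and with the length trend offset, and -0.13 with the replicate block, and it was -0.12 to 0.08 with 1 mouse left out, when Cort was -0.29 to 0.03 and Tac1 -0.01 to 0.18. For morphine in Kdm7a-shRNA mice Vip was 0.01 with library size only and 0.02 with the length trend offset, and Adcyap1 was 0.00 with the replicate block. With 1 mouse left out Vip was -0.24 to 0.17, Cort 0.00 to 0.25, Tac2 -0.35 to 0.06 and Adcyap1 -0.08 to 0.34. In the interaction Tac2 was 0.06 with the replicate block and -0.36 to 0.05 with 1 mouse left out, when Tac1 was -0.01 to 0.23.

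The labels do not say whether the replicate numbers pair the mice, and the check made here cannot decide it. Deviations from the group means correlated at -0.102 to 0.395 over 21 same-numbered pairs (median 0.0139) and at -0.474 to 0.318 over 74 others (median -0.00725). The correlation was over 0.1 for 6 of the same-numbered pairs and 13 of the others. With the replicate block 6 of the 9 peptides passed under saline and 4 under morphine, with Tac2 added in both and Cck under saline. Crh, at 4 to 24 counts, limits what could be detected for that gene.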
